A study of Mus musculus with 9 samples.

Results

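The genes described here are 10 members of the mammalian circadian clock: Clock, Arntl (also called Bmal1), Npas2, Per1, Per2, Per3, Cry1, Cry2, Nr1d1 and Dbp. They were chosen by name from 16637 genes named on the array, with the knowledge that a Clock probe had been low in 3xTG hippocampus at 12 months. All 14 probes of these genes among 29922 probes are accounted for, with no filter on missing values. Each of the 10 genes was found under its symbol as annotated; Clock had 3 probes, Npas2 and Per3 had 2 each, and the other 7 genes had 1. Ratios at 12 months are therefore given without a test for all members, as are those of Clock in wild-type ageing, which has the same 12-month wild-type mice on the other side of the ratio.

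The data are from 9 arrays with a pair of dyes each, hybridised with amplified RNA of single hippocampi from 8 female mice. Wild-type (WT) mice of 3 months and of 12 months, strain 129SV with C57BL6, and 3xTG mice of 3 months and of 12 months, strain B6;129Psen1tm1Mpm Tg (APPSwe,tauP201L) 1Lfa, gave 2 animals each. 3xTG is an Alzheimer's disease model that carries mutant human APP and tau transgenes and a mutant presenilin gene, so a genotype difference joins all of these with any difference in strain background. There were 3 comparisons of 3 arrays: WT at 12 over 3 months, 3xTG over WT at 3 months and 3xTG over WT at 12 months. Arrays of a comparison share mice, so the 3 arrays are not 3 independent animals. WT ageing shares its 3-month mice with the genotype comparison at 3 months and its 12-month mice with that at 12 months. The time of day at which hippocampi were taken is not given in the sources used here. The arrays hold ratios only, so neither the levels of hippocampal marker genes nor those of clock genes can be read from them, and fewer cells of a type and less RNA per cell cannot be told apart.

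The clock is a feedback loop of transcription that runs in most cells with a period of about a day. CLOCK, or its relative NPAS2, pairs with ARNTL and activates genes through E-box sequences, among them the Per and Cry genes, whose proteins enter the nucleus and inhibit that activation. A second loop runs through NR1D1 (REV-ERB alpha), which represses Arntl through ROR elements, and DBP, a transcription factor under E-box control, acts on D-box sequences of output and clock genes. In the hippocampus the loop cycles more weakly than in the suprachiasmatic nucleus, and it has been linked to daily changes in memory formation.

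Values are log2 ratios of test over reference RNA, and the median listed value of each array was subtracted. Deposited array medians ran from -1.71 to 2.34. Centring moves all probes together: the median fitted ratio over all probes was -0.14, 0.11 and 0.58 in WT ageing and genotype at 3 and 12 months, 1.78, 0.36 and -0.54 as deposited, and 0.56, -0.58 and -1.17 relative to abundant transcripts of ribosome, respiratory chain, proteasome and glycolysis. Signs of the clock genes' values that turn with this choice are given with each gene. No deposited value lies between -0.5 and 0.5, so a probe missing from an array may have had a small ratio or may have been left out for another reason. After centring, such a small ratio would lie between -2.83 and -1.84 on the second WT ageing array and between 1.21 and 2.21 on the third array of genotype at 12 months, the lowest and highest such intervals. A missing value is therefore not a value near the array median. The clock genes had 67 of 126 possible values listed (53.2%), against 48.6% for all probes.

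**Figure D1:**
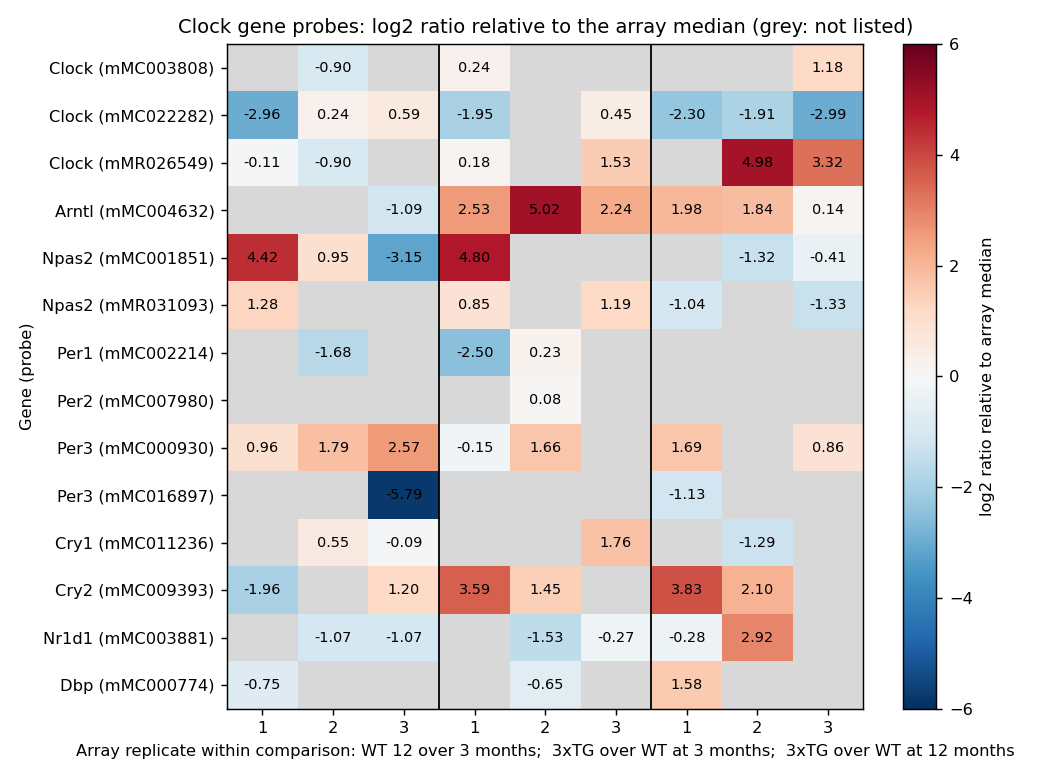
Log2 ratios relative to the array median for each of the 14 clock gene probes (rows) on each of the 9 arrays (columns, 3 per comparison); colour gives the value, printed in each cell, and grey marks a value that is not listed. Blue and red mix in most rows and columns, and the Clock probes mMC022282 and mMR026549 have opposite colours at 12 months.

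Clock, the gene whose low ratio led to this choice of genes, gave ratios of opposite sign from its probes at 12 months. Probe mMC022282 had log2 ratios of -2.30, -1.91 and -2.99 on the 3 arrays of 3xTG over WT at 12 months, a mean of -2.40 ± 0.55 (SD, n = 3 arrays). Probe mMR026549 was listed on 2 of these arrays, at 4.98 and 3.32, a mean of 4.15 ± 1.17 (SD, n = 2). On every array of this comparison that lists them the first probe lay below the array median and the second above it. The remaining probe, mMC003808, was listed on the third array alone, at 1.18. As deposited that value is -0.54, so its side of 0 depends on the centring. Where mMC003808 and mMR026549 were both listed they lay close together on the second WT ageing array (-0.90 and -0.90) and the first array at 3 months (0.24 and 0.18), and 2.15 apart on the third array at 12 months. The WT ageing value of mMC003808 was 1.44 as deposited.

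The opposite ratios of the Clock probes do not rest on the centring, since centring shifts all probes of an array alike. Within an array, mMR026549 exceeded mMC022282 by 6.89 and 6.31 log2 units at 12 months. The same gap was 2.13 and 1.08 on the arrays of genotype at 3 months that list both probes, and 2.85 and -1.14 on those of WT ageing. Over all genes with several probes, 821 probe pairs could be compared in this way at 12 months; 47.7% of the pairs lay on opposite sides of the array median. The mean gap of the Clock probes was 0.857 in WT ageing, 1.60 at 3 months and 6.60 at 12 months, where the median gaps of all pairs were 1.51, 1.61 and 1.63. The last Clock gap contains the low values that led to the choice of genes, and nothing is read from its size. Probe sequences were not used, so the transcript or exon that each Clock probe detects is not known here. Of the 3 Clock probes, mMC022282 was the one below 0 at 12 months under every centring.

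**Figure D2:**
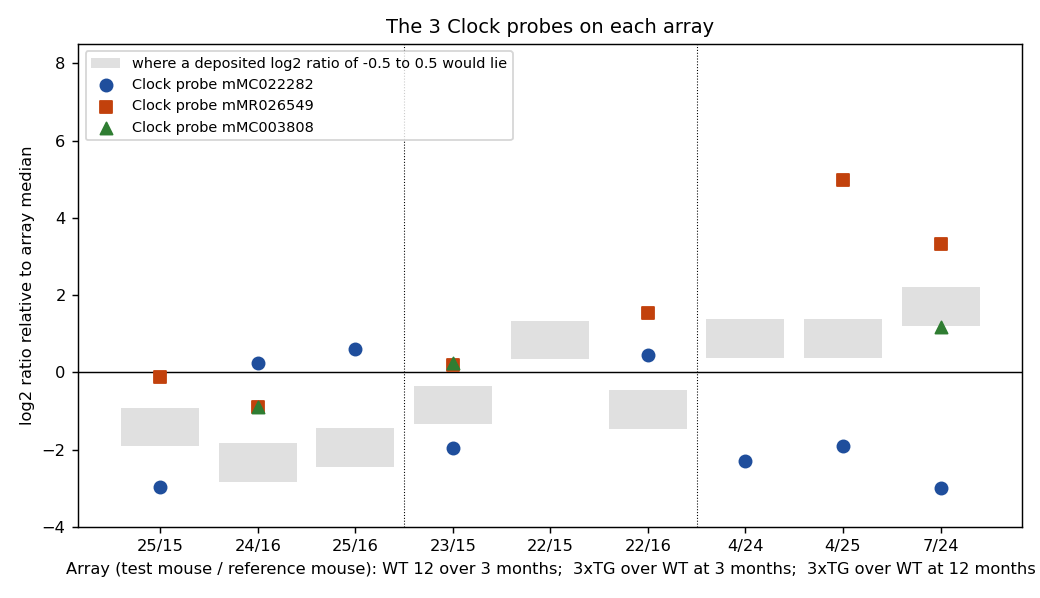
Log2 ratio relative to the array median (vertical axis) of the 3 Clock probes on each of the 9 arrays (horizontal axis, labelled by test mouse and reference mouse, 3 arrays per comparison). Grey bands show where a deposited log2 ratio between -0.5 and 0.5 would lie on that array; at 12 months mMC022282 sits between -2.99 and -1.91 and mMR026549 at 3.32 and 4.98.

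In the other comparisons mMC022282 was not uniformly low. In WT ageing it was at -2.96, 0.24 and 0.59, and at 3 months it was at -1.95 and 0.45 with the second array not listed; relative to the abundant transcripts the 0.45 turned to -0.32. Probe mMR026549 was at -0.11 and -0.90 in WT ageing, values that turned to 1.30 and 1.44 as deposited. The values of mMC022282 in WT ageing and at 3 months fell apart by the 3-month WT mouse used as reference. Arrays with mouse 15 as reference gave -2.96 and -1.95, and arrays with mouse 16 as reference gave 0.24, 0.59 and 0.45. A level particular to one of these reference mice enters the comparisons alike and cannot be told apart from the test animals' levels here. At 12 months the low values of mMC022282 came with both reference mice, 24 (-2.30 and -2.99) and 25 (-1.91), and with both 3xTG mice, 4 and 7. These low values led to the choice of genes, so nothing is read from their agreement.

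In the fit at 3 months the Clock probes had log2 ratios of -0.75 ± 1.05 (SE; mMC022282) and 0.85 ± 1.07 (SE; mMR026549), each from 2 arrays. Neither passed, with limma adjusted p-values of 0.794 and 0.772. The fit was made with limma on probes listed on at least 2 arrays of every comparison; 5 of the 14 clock gene probes entered it and 0 passed at 3 months. Over all 3644 probes fitted, 0.0% were called in each of the 3 comparisons, with 428, 488 and 604 at an unadjusted p under 0.05. Another 9 clock gene probes were listed too rarely to enter. Probe mMC022282 turned to 0.15 at 3 months without centring and to 1.22 without the first array of that comparison; mMR026549 turned to -0.12 without the third.

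At 12 months mMC022282, whose low values led to the choice of genes, kept its direction on all 3 arrays under each centring. Its mean was -3.55 ± 1.01 (SD, n = 3) on the deposited scale and -4.17 ± 0.17 (SD, n = 3) relative to the abundant transcripts. The corresponding means of mMR026549 were 2.86 and 2.51 (n = 2). These signs assume that each ratio is test over reference, as the labels' sample and reference channels imply. If the values were Cy5 over Cy3 instead, the fitted ratio of mMC022282 at 12 months would be -0.37 ± 1.44 (SE) and its arrays would differ in sign. Under the reading used here, arrays of 1 comparison with swapped dyes had correlations across probes of 0.20 to 0.31; probes are not independent replicates.

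Npas2 encodes the relative of CLOCK that is abundant in forebrain and can take its place in the dimer with ARNTL. Its probes lay on the same side of the array median on each of the 3 arrays that list both. Probe mMR031093 was at 1.28 on the first WT ageing array, at 0.85 and 1.19 at 3 months, and at -1.04 and -1.33 at 12 months. Probe mMC001851 was at 4.42, 0.95 and -3.15 in WT ageing, at 4.80 on the single listed array at 3 months, and at -1.32 and -0.41 at 12 months. All listed values of Npas2 were thus above the median in 3xTG over WT at 3 months and below it at 12 months, also as deposited and relative to the abundant transcripts. Of the Npas2 probes, mMR031093 alone was listed on at least 2 arrays at each age; of all 6807 such probes, 4.39% lay above on all listed arrays at 3 months and below on all at 12 months, and 11.4% on opposite sides in either direction. The values of mMC001851 above 4 came on the arrays with reference mouse 15, while those with mouse 16 gave 0.95 and -3.15. As deposited, the means at 12 months were -2.16 (mMC001851) and -2.47 (mMR031093). Neither probe entered the fit; without the filter on missing values the ratio of mMR031093 at 3 months was 1.02 ± 1.15 (SE, limma adjusted p = 0.872), and with unlisted values set to 0 it was 1.10 ± 0.84 (SE, limma adjusted p = 0.501).

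Arntl encodes the obligate partner of CLOCK and NPAS2 and was listed on all 6 genotype arrays. In 3xTG over WT at 3 months it was at 2.53, 5.02 and 2.24, a mean of 3.26 ± 1.53 (SD, n = 3 arrays). At 12 months it was at 1.98, 1.84 and 0.14, a mean of 1.32 ± 1.02 (SD, n = 3). The sole listed value in WT ageing was -1.09, which was 0.86 as deposited. The excess at 3 months was also present as deposited (3.59 ± 0.52, SD, n = 3) and relative to the abundant transcripts (2.52 ± 0.98, SD, n = 3). That at 12 months was 0.17 ± 1.51 as deposited and turned to -0.45 ± 0.53 relative to the abundant transcripts (SD, n = 3). With a single listed ageing array Arntl did not enter the filtered fit. Without the filter its ratio at 3 months was 2.71 ± 1.10 (SE, limma adjusted p = 0.757). With unlisted values set to 0 it was 3.09 ± 0.75 (SE, limma adjusted p = 0.0811). Neither passed. In the latter setting mouse variance was estimated at 0.0052 times array variance, so arrays that share mice counted as nearly independent.

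Promoter windows of the clock genes were searched for the sequences through which the loop acts, since Arntl, its repressor Nr1d1, Cry2 and Per3 carry most of the values below. RefSeq windows of 300 bases, from 250 before to 50 after a start site on GRCm38.p6, matched 9 of the 10 genes (13 windows). The ROR element, AGGTCA preceded by AANT on either strand, was found in 1 of these genes, Arntl, and in 0.219% of 32851 windows of all genes. The E-box CACGTG was found in Cry1 and Per1 and in 7.15% of all windows. Its variant CACGTT lay in Cry1, Cry2 and Nr1d1 and in 4.68% of all windows. The D-box TTATGTAA was found in Per3, at 2 places, and in 0.938% of all windows. No motif overlapped another, and a match is only a run of letters in the window. None of the 3 Clock windows held any of them. The 4 windows below are shown because these genes have values on most arrays and each holds such an element, in capitals; minus-strand genes read on their own strand, and a CACGTT on the other strand reads AACGTG.
Arntl, chr7:113207261-113207560, plus strand: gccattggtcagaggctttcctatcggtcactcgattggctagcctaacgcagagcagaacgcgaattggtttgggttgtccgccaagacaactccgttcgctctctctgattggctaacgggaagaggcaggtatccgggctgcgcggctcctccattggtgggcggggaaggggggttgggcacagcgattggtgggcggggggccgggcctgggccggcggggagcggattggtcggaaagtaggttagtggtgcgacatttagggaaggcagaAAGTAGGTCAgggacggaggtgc
Nr1d1, chr11:98775328-98775627, minus strand: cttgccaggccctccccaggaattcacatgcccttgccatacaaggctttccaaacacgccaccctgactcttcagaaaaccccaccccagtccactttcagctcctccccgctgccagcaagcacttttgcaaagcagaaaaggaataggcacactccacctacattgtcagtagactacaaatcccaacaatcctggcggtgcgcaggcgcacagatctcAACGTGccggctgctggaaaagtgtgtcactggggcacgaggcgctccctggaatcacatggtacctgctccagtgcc
Cry2, chr2:92434020-92434319, minus strand: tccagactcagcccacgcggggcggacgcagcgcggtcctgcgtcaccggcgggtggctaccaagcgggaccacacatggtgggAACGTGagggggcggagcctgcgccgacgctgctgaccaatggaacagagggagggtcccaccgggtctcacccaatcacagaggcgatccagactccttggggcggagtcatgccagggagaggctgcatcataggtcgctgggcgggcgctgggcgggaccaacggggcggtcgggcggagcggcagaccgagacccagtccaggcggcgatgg
Per3, chr4:151044616-151044915, minus strand: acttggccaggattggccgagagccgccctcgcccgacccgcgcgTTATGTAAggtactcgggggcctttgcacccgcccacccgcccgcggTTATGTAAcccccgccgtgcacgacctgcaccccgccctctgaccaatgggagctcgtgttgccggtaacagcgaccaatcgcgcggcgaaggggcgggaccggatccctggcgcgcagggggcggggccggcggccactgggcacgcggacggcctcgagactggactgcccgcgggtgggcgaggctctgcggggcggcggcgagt

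In Arntl the ROR element began 27 bases after the start site. In Nr1d1 and Cry2 the E-box variant began 28 and 166 bases before it, and the D-boxes of Per3 began 205 and 158 bases before it. No binding was measured in this study, so the windows describe the genes and not the ratios.

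Nr1d1, the repressor of Arntl, was below the median on every listed array of WT ageing (-1.07 and -1.07) and of 3xTG over WT at 3 months (-1.53 and -0.27). At 12 months it was at -0.28 and 2.92. The groups of genotype arrays at both ages overlapped. As deposited the WT ageing values were 1.26 and 0.88, above 0, and the -0.27 at 3 months was 0.70. Its fitted ratio was -0.44 ± 2.16 (SE, limma adjusted p = 0.972) in WT ageing and -0.90 ± 1.52 (SE, limma adjusted p = 0.837) at 3 months. The WT ageing value turned to 2.61 without centring and to 0.71 relative to the abundant transcripts. At 3 months Arntl was thus above the median on 3 of 3 arrays and Nr1d1 below it on 2 of 2, but neither difference passed a test.

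**Figure D3:**
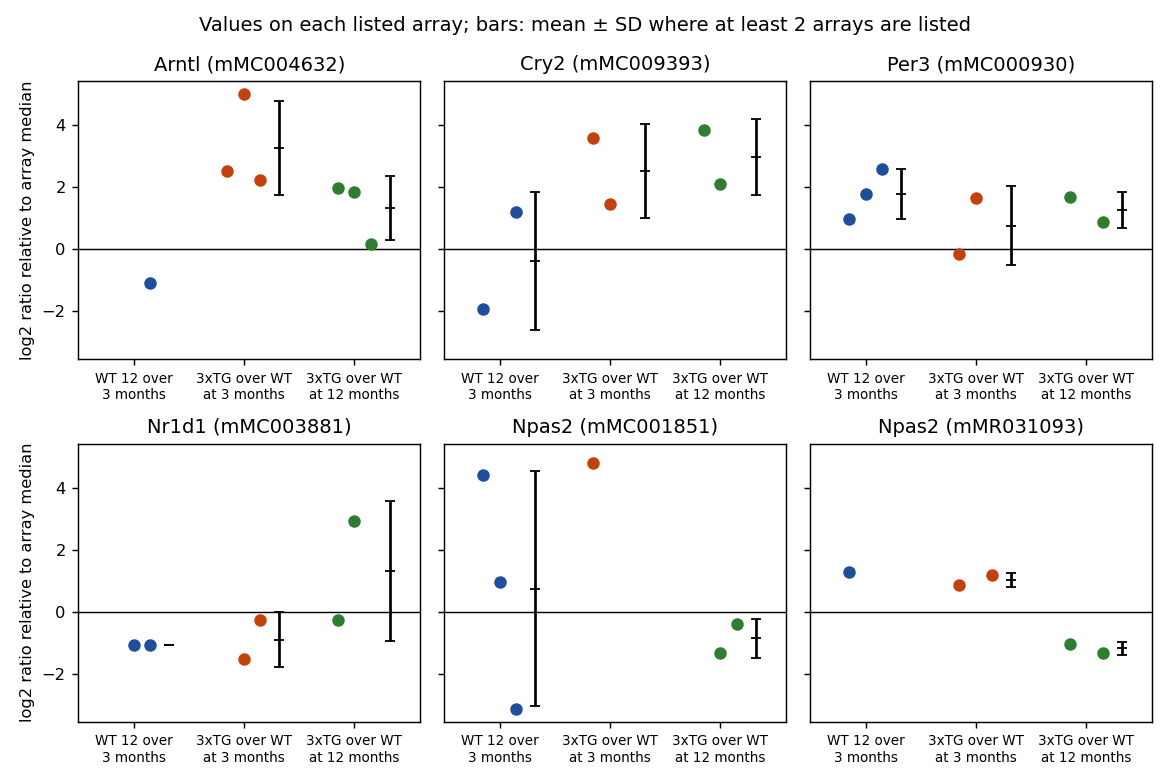
Log2 ratio relative to the array median (vertical axis) for 6 probes, by comparison (horizontal axis); points are arrays, and bars give the mean ± SD where at least 2 arrays are listed. Arntl is above 0 on all 6 genotype arrays (relative to abundant transcripts all 3 at 12 months are below), Per3 mMC000930 on all 3 WT ageing arrays under each centring, and Npas2 probe mMR031093 lies above 0 at 3 months and below 0 at 12 months.

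Among the inhibitors of the loop, Per3 had the fullest record. Per3 is the period gene least needed for the rhythm itself. Probe mMC000930 was at 0.96, 1.79 and 2.57 in WT at 12 over 3 months, a mean of 1.77 ± 0.80 (SD, n = 3 arrays). All 3 arrays lay above the median, and they stayed above 0 as deposited (3.67 ± 1.14, SD, n = 3) and relative to the abundant transcripts (2.40 ± 1.07, SD, n = 3). The fitted ratio was 1.50 ± 0.93 (SE, limma adjusted p = 0.641), so it did not pass. In the genotype comparisons it was at -0.15 and 1.66 at 3 months and at 1.69 and 0.86 at 12 months, the last pair turning to -0.35 and -0.33 relative to the abundant transcripts. As deposited the -0.15 was 0.69 and the 0.86 was -0.85. The fitted ratio at 3 months was 0.26 ± 1.32 (SE, limma adjusted p = 0.952). The second Per3 probe, mMC016897, was listed on 2 arrays, at -5.79 on the third WT ageing array and at -1.13 on the first at 12 months. On that ageing array the value of mMC016897 minus that of mMC000930 was -8.36, and the Per3 probes lay on opposite sides of the median on both arrays that list them.

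Per1 and Per2, the period genes that light and neuronal activity induce, were listed on few arrays. Per1 was at -1.68 on 1 WT ageing array, at -2.50 and 0.23 at 3 months, and on no array at 12 months. As deposited the WT ageing value was 0.65 and the 0.23 was -0.60. Per2 was listed on 1 array in all, at 0.081 at 3 months and -0.75 as deposited. These values cannot show a difference in either direction.

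The cryptochromes, the main repressors of CLOCK and ARNTL, differed in coverage. Cry2 was at 3.59 and 1.45 in 3xTG over WT at 3 months and at 3.83 and 2.10 at 12 months, above the median on all 4 listed genotype arrays. In WT ageing it was at -1.96 and 1.20, so those arrays differed in sign. As deposited the 4 genotype values were also above 0, from 0.61 to 4.43. Relative to the abundant transcripts 1 of them fell just below 0, at -0.17. The fitted ratio, which allows for dye, was 0.94 ± 1.88 (SE, limma adjusted p = 0.867) at 3 months. It is smaller than the mean of 2.52 and turned to -0.13 without the first array of that comparison. In WT ageing the fitted ratio was -0.82 ± 1.24 (SE, limma adjusted p = 0.900), or 0.89 without centring. Cry1 was at 0.55 and -0.088 in WT ageing, at 1.76 on 1 array at 3 months and at -1.29 on 1 array at 12 months; both ageing values were above 0 under the other centrings.

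Dbp, the D-box factor whose transcript usually swings widely over the day, was listed on 1 array of each comparison. It was at -0.75 in WT ageing, at -0.65 at 3 months and at 1.58 at 12 months. The deposited values of these arrays were 0.66, -1.48 and 0.71, so the sign in WT ageing depends on the centring. The value at 12 months also turned, to -0.46 relative to the abundant transcripts.

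Counted by side of the array median, the clock genes lay on both sides in every comparison. Of the probes listed on at least 2 arrays in WT ageing, 1 of 7 lay above the array median on all listed arrays (Per3), where 25.1% of all such probes did. Another 2 of the 7 lay below it on all (Clock mMR026549 and Nr1d1), against 26.1% of all. At 3 months 4 of 8 lay above (Clock mMR026549, Arntl, Npas2 mMR031093 and Cry2) and 1 below (Nr1d1), against 28.7% and 27.6% of all probes. At 12 months 4 of 8 lay above (Clock mMR026549, Arntl, Per3 and Cry2) and 3 below (Clock mMC022282 and both Npas2 probes), against 29.9% and 28.3%; nothing is read from this last count, since that comparison led to the choice of genes. These counts rest on 7 or 8 probes and were not tested. Without centring the WT ageing count above was 4 and that below 0, and relative to abundant transcripts 5 of 8 were below at 12 months.

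Beyond the 10 genes, 6 lists of the wider clock pathway hold 62 genes, of which 58 had a probe on the array. Of these, 8 entered the filtered fit and 0 passed in any of the 3 comparisons, where 0 of all 3644 probes fitted passed either. The 8 genes included 4 bHLH-PAS relatives and 0 kinases or ligases. In the list of other loop genes, 5 of 5 genes listed on at least 2 arrays were below the median at 3 months (median -1.38, against -0.083 for all probes). All 5 were below 0 under the other centrings too. Genes listed on 1 array at 3 months lay on both sides. Nfil3 was at 3.08, Hlf at 0.16 and Rora at -2.03, and the Nr1d2 probes were at 1.27 and -4.75. In WT ageing 5 of 8 were below (median -0.15, all probes 0.04), but 1 of 8 as deposited. At 12 months 3 of 5 were below (median -0.079, all probes 0.10), and 5 of 5 under the other centrings. Tef, a PAR bZIP factor that binds D-boxes like DBP, had a mean of -3.47 ± 0.69 (SD, n = 3 arrays) in WT ageing and -1.88 ± 0.55 (SD, n = 3) at 3 months. Those comparisons share the 3-month WT mice, so the values are not separate. Its only value at 12 months was 2.56. Rorb, which activates through ROR elements, was at -1.38 ± 1.07 (SD, n = 2) at 3 months and -1.62 ± 1.74 (SD, n = 3) at 12 months. Tef kept its sign under each centring, as did Rorb. Hlf, another PAR bZIP factor, turned sign with the centring and was at -0.28 ± 0.92 (SD, n = 3) in WT ageing and 0.032 ± 0.42 (SD, n = 2) at 12 months. Tipin, the partner of TIMELESS at replication forks, was at -2.14 ± 1.89 (SD, n = 3) at 3 months on one probe and -0.997 ± 1.85 (SD, n = 2) on the other.

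The kinases and ligases that set the stability of PER and CRY proteins had 4 of 5 genes above the median at 12 months (median 2.16, all probes 0.10) and 4 of 7 in WT ageing (median 0.026). Under the other centrings this was 3 of 5 and 5 of 7. Only 1 gene was listed often enough at 3 months. Csnk1e and Csnk1d phosphorylate PER proteins. On probe mMC023193 Csnk1e was at -3.16 ± 0.97 (SD, n = 3 arrays) in WT ageing and 3.20 ± 0.71 (SD, n = 3) at 12 months. On probe mMC025767 Csnk1d was at -4.76 ± 0.12 (SD, n = 2) and 2.16 ± 0.47 (SD, n = 2). The signs of these means held under each centring, but other probes of both genes differed in WT ageing. Csnk1e mMR001430 was at 0.78 on its single listed ageing array and 1.95 on that at 12 months. Csnk1d mMR029238 was at -1.70 ± 3.76 (SD, n = 2) in WT ageing, with 1 array above the median, and 2.73 ± 1.84 (SD, n = 3) at 12 months. The 12-month WT animals supply the test RNA of the first comparison and the reference RNA of the second, so these opposite values are not separate observations. Prkaa2, a catalytic subunit of AMPK, was at 2.17 ± 1.41 (SD, n = 3) in WT ageing, and Fbxl21, a ligase subunit for cryptochromes, at 1.11 ± 2.43 (SD, n = 3).

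Clock-controlled outputs had 2 of 6 genes above the median in WT ageing, 2 of 4 at 3 months and 1 of 2 at 12 months; as deposited 5 of 6 were above in WT ageing. Noct (nocturnin) was at 0.67 ± 1.38 in WT ageing, 1.58 ± 2.00 at 3 months and 3.31 ± 1.57 at 12 months (SD, n = 2 arrays each) on probe mMC016445; its probe mMC020519 was at -1.28 on 1 ageing array. Cdkn1a, a cell cycle inhibitor, was at -1.09 ± 1.25 (SD, n = 3) in WT ageing and -2.89 ± 1.37 (SD, n = 2) at 3 months on probe mMR028209; the ageing mean was 0.81 as deposited, and probe mMC021344 was at 0.61 ± 1.04 (SD, n = 2) there. Inputs to Per1 had 3 of 6, 2 of 4 and 3 of 7 genes above the median in the 3 comparisons, and 4 of 6, 0 of 4 and 1 of 7 relative to the abundant transcripts. Crebbp, the coactivator of CREB, was at 3.50 ± 0.99 (SD, n = 3) in WT ageing and 1.06 ± 1.07 (SD, n = 3) at 12 months on probe mMC008882, while probe mMR028149 was at -1.66 ± 1.31 (SD, n = 3) at 12 months. The 12-month mean of mMC008882 was -0.09 as deposited. Egr1, an activity-induced factor, was at -0.30 ± 1.38 (SD, n = 3), -0.66 ± 0.77 (SD, n = 3) and 0.26 ± 0.035 (SD, n = 2); the ageing and 12-month means turned to 1.60 and -1.03 as deposited.

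Coregulators had 2 of 4, 4 of 4 and 2 of 5 genes above the median. Relative to the abundant transcripts the count at 3 months was 2 of 4. That count also depends on the probe. At 3 months Ddx5 was counted on mMC025864 (0.083 ± 0.53, SD, n = 2). Its other probes were at 0.46 (mMR027661, n = 2), 3.18 (mMC020394, 1 array) and -2.74 (mMR029914, n = 2). Parp1 was counted on mMC025866 (0.15 ± 0.68, SD, n = 2), while mMC008923 was at -1.73 on 1 array. Hdac3, the deacetylase recruited by NR1D1, was at 3.25 ± 1.74 (SD, n = 2 arrays) at 3 months and at -1.08 ± 0.049 (SD, n = 2) at 12 months on probe mMC017485. Its probe mMR028466 was at 1.91 ± 3.31 (SD, n = 3) at 12 months, with 2 of 3 arrays above the median. Among bHLH-PAS relatives of CLOCK and ARNTL, 2 of 9, 3 of 6 and 4 of 8 lay above the median; as deposited 9 of 9 were above in WT ageing and 2 of 8 at 12 months. Npas1, a repressor of the family found in interneurons, was at -2.54 ± 0.17 (SD, n = 2) at 3 months, where its fitted value had a limma adjusted p of 0.300. Hif1a, the hypoxia factor, was at 1.55 ± 1.26 (SD, n = 2) at 3 months and 1.83 ± 1.92 (SD, n = 3) at 12 months.

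**Figure D4:**
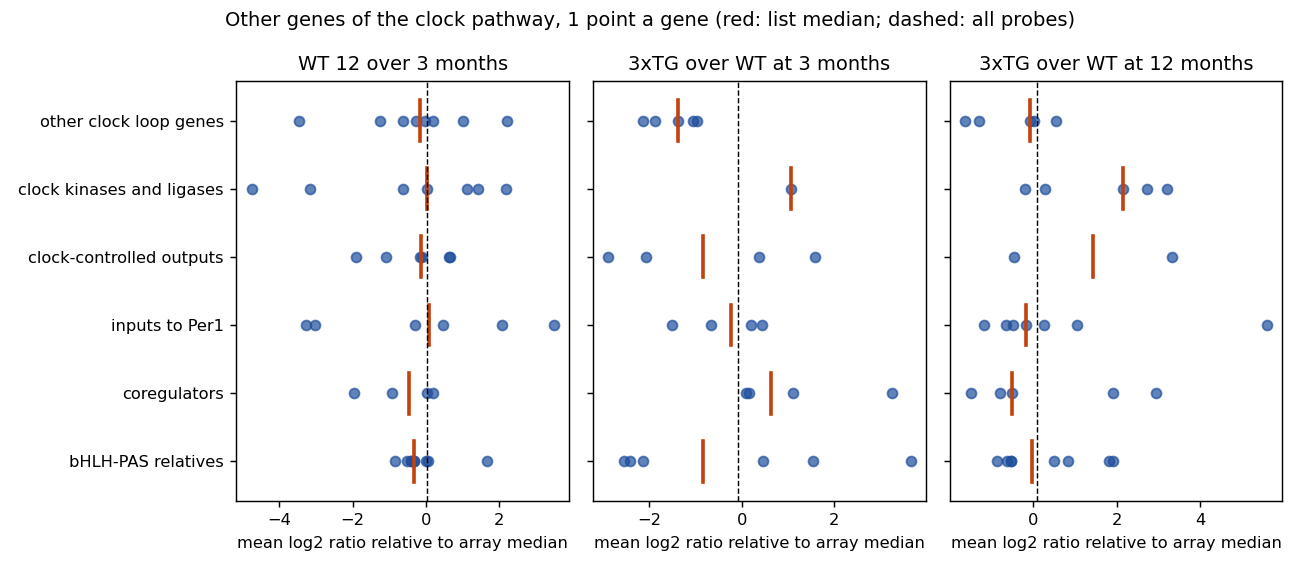
Mean log2 ratio relative to the array median (horizontal axis) of genes in 6 lists of the clock pathway (vertical axis), 1 panel per comparison and 1 point per gene listed on at least 2 arrays; red bars are list medians and the dashed line is the median of all such probes. The 5 other loop genes shown at 3 months lie below 0, with a median of -1.38. The kinases and ligases have a median of 2.16 at 12 months (0.87 as deposited).

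The probes whose ratios over the 8 arrays listing Clock mMC022282 were most like it were taken from 158 probes of named genes listed on the same arrays. They were Cd3g (Pearson r = 0.89), Hccs (0.88), Hdac8 (0.77), Zfp422 (0.72) and Cd200 (0.71). These are descriptions over 8 arrays that share mice. The arrays include those at 12 months, whose low Clock values led to the choice of genes. Nothing is read from the likeness. Cd3g, a T cell receptor subunit, shared the low mean at 12 months (-3.78), while Hccs was near the median there (0.16) and above it in WT ageing (3.00).

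Markers of cell types, neurons among them, were set beside these values. Choroid plexus markers, whose tissue borders the hippocampus, had 3 of 3 genes below the median in WT ageing and 3 of 3 above it at 3 months. At 12 months it was 2 of 3 above, with per-array medians of -0.60, -1.87 and 1.00. Ttr, its defining transcript, was at -3.60 ± 0.12 (SD, n = 3 arrays) at 12 months. Folr1 and Kl, also counted there, were at 2.24 ± 3.52 and 1.30 ± 2.69 (SD, n = 2 each), each with 1 array above the median. On single arrays Aqp1 was at 2.47 and Clic6 at -0.47. Astrocyte markers had 3 of 3 genes above the median at each age of the genotype comparison, but Gfap depended on the probe counted. At 3 months it was counted on mMC012871 (2.57 ± 3.58, SD, n = 2), while mMR030764 was at -1.70 ± 0.12 (SD, n = 2). At 12 months it was counted on mMR030764 (0.81 ± 5.42, SD, n = 2), while mMC012871 was at -3.84 on 1 array. Oligodendrocyte markers had 0 of 4 genes above in WT ageing, 2 of 3 at 3 months and 1 of 3 at 12 months. Microglial markers had 4 of 5 above in WT ageing, 2 of 2 at 3 months and 1 of 3 at 12 months. Neuronal markers had 2 of 4, 2 of 4 and 3 of 4 above. Endothelial markers had 1 of 2, 1 of 2 and 1 of 1 above, and markers of hippocampal fields 2 of 3, 3 of 5 and 1 of 2. The endothelial gene at 12 months was Pecam1, counted on probe mMC005668 (0.73 ± 0.64, SD, n = 2). Its probe mMR029426 was at -2.46 ± 0.046 (SD, n = 2) there, so that count turns with the probe. As deposited 2 of 3 choroid plexus genes were above in WT ageing, as were 2 of 4 oligodendrocyte genes. At 12 months 1 of 3 astrocyte genes and 2 of 4 neuronal genes were above as deposited. Ttr was low at 12 months under each centring, but at 3 months it was at 0.295 ± 1.72 (SD, n = 2). Relative to the abundant transcripts 1 of 3 choroid plexus genes was above in each comparison. Of all probes listed on at least 2 arrays, 51.0%, 47.9% and 52.4% had means above the median in the 3 comparisons. The part of cell composition in the clock gene ratios was not tested.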

How the data were processed

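The deposited values are log2 ratios by array, probe by probe, on 9 arrays. Log base and direction are taken from the values and labels, and the authors' scanner settings, filters and normalization are not known here. Amplified RNA carried either dye, per the labels' protocols, and Cy5 marked the test RNA on 3 arrays and Cy3 on the other 6. Depth has no counterpart here: the number of arrays limits the precision, and signal over background is unknown.

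Members, lists and tests were chosen with earlier results of these data known. Probe symbols came from the platform annotation (21020 of 29922 probes have 1) and were updated through RefSeq synonyms. Each array was centred on its median. Probes listed on at least 2 of 3 arrays of every comparison (3696, of which 3644 could be fitted) entered a generalised least squares fit in limma 3.58.1 (R 4.3.3), with a term per comparison and for dye. The covariance came from shared mice, with mouse variance set at 1.02 times array variance, as estimated from 142 complete probes. That estimate was unstable: without single arrays it ran from 0.143 to 10.0, the upper limit of the search. The standard errors and p-values rest on it. Benjamini-Hochberg adjustment with a threshold of 0.05 was used. The script was tested on simulated data.

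All probes of the members are reported. For other lists, up to 4 genes with most listed arrays are named. Further probes of these genes and of Parp1 were chosen after their values were seen. Counts by list take each gene's probe with most listed arrays in the comparison, ties by probe name. The check of the lists under other centrings was also added after seeing the data. Alternatives covered centring, dye, covariance, missing values, ratio direction, blocks and leaving out arrays. Experiment numbers of the titles do not pair arrays: deviations of same-numbered arrays correlated at -0.04 to 0.08.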

Additional observations from a re-analysis of the deposited data

Results flagged for a closer look

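Npas2 probe mMR031093 lay above the array median on every listed array of 3xTG over WT at 3 months (0.85 and 1.19) and below it on every listed array at 12 months (-1.04 and -1.33). The mean genotype ratio at 12 months minus that at 3 months was -2.20 on the log2 scale. Of 6807 probes listed on at least 2 arrays at each age, 4.39% did the same and 11.4% lay on opposite sides in either direction. The 12-month comparison led to the choice of genes, so the difference is a description and no test of it is given. As deposited the signs were the same, at 1.69 and 2.15 against -1.91 and -3.04.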

How the results depend on the processing

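limma called 0 probes in all 5 contrasts in the main setting, without centring, centred on abundant transcripts, without the dye term, without the filter on missing values, read as Cy5 over Cy3, with the replicate block, with the raw file number as a block and without each array in turn. Treating arrays as independent gave 66 calls in WT ageing and 56 for genotype at 3 months. With the 142 probes listed on all arrays it gave 21, 60 and 74 in WT ageing and genotype at 3 and 12 months. With unlisted values set to 0 it gave 231 and 7 in WT ageing and genotype at 3 months. Mouse variance was there estimated at 0.0052 times array variance, so arrays that share mice counted as nearly independent. For genotype at 3 months no clock gene probe was called in any setting that it entered. The same held in WT ageing for the clock genes other than Clock, which is given no test there. No clock gene probe was listed on all arrays, so none was among the 142. With arrays as independent, 66 of 3644 probes were called in WT ageing and 56 of 3644 at 3 months. With unlisted values set to 0 it was 231 of 3705 and 7 of 3705. With so few calls over all probes, the lack of clock gene calls is no result about these genes.

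The count of clock gene probes above 0 on all listed arrays was 4 without centring and 2 relative to abundant transcripts in WT ageing, and 2 and 2 at 12 months. The count below 0 was 0 and 1 in WT ageing, and relative to abundant transcripts 3 at 3 months and 5 at 12 months. Signs of uncalled fitted ratios turned as follows. Per3 mMC000930 at 3 months was at -0.13 without centring, -0.25 relative to abundant transcripts, -0.96 with the raw file number as a block, -0.28 with the replicate block, -0.0096 with unlisted values at 0, and -0.65 to 1.16 without single replicates. Nr1d1 in WT ageing was at 2.61 and 0.71 under the other centrings and -1.31 to 1.02 without single replicates. Cry2 was at 0.89 without centring in WT ageing, and at 3 months -0.056 relative to abundant transcripts and -0.13 to 2.01 without single replicates. Clock mMC022282 at 3 months was at 0.15 without centring and -2.91 to 1.22 without single replicates. Clock mMR026549 was at -0.36 with the raw file number as a block and -0.12 to 1.99 without single replicates. Read as Cy5 over Cy3, Per3 in WT ageing was at -0.48, Nr1d1 at 0.17 in WT ageing and 0.63 at 3 months, Cry2 at -2.89 and Clock mMC022282 at 1.20 at 3 months. The cause of these turns was not tested. Replicate numbers do not pair the arrays; the replicate block left 2482 probes and 0 calls in the 3 comparisons.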
